A study of Mus musculus with 2 samples.

Results

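The mesothelial and uroplakin genes described here were 8 of the 19550 genes measured in single cells of the mouse foregut, namely the uroplakins *Upk1a*, *Upk1b*, *Upk3a*, *Upk3b* and *Upk3bl* together with *Msln*, *Wt1* and *Lrrn4*. They were listed by name, with their levels in the cells labelled Stromal-2 and in the squamous cells already in view, so the levels by cell label that follow are a description and were not tested. Cells of wild type C57BL/6 mice came from the esophagus, the gastroesophageal squamocolumnar junction (GE-SCJ) and the stomach at embryonic day 15 (E15), E19, 2 days after birth (pup) and 8 weeks of age (adult), with no adult stomach group among the 11 groups of region and stage. The design gives 6 mice at E15, 2 at E19, 2 pups and 3 adults, but the methods of the study give another number of combined mice, so how many mice each pool held is uncertain. Mice were pooled within each region and stage, the tissue was digested with collagenase II, and the pools were told apart by oligonucleotide cell tags. Each group of region and stage is thus 1 sample without a replicate, and all groups carry the same genotype and no treatment.

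Levels are summed counts of unique molecular identifiers (UMIs, 1 per captured RNA molecule), scaled to counts per 1e6 UMIs of the same cells (CPM), with exact Poisson 95% intervals. Shares are percentages of cells with at least 1 UMI of a gene, and log2 ratios were taken with 1 UMI added to each sum. All intervals cover counting error only, not the variation between mice, so no p-value is given. Those of CPM and of log2 ratios also leave out the variation between cells. They are thus too narrow where few cells hold most UMIs of a gene. The 7808 cells fell into 143 to 1403 cells per group and carried a median of 10424.5 UMIs. No cell barcode was present more than once. Because 3′ reads are counted as molecules without a length scaling, levels were compared between cells within a gene and not between genes.

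Uroplakins are membrane proteins best known from the urothelium of the bladder, where they form rigid plaques on the outer face of the umbrella cells. The tetraspanins UPK1A and UPK1B pair with a partner that spans the membrane a single time, UPK2 for the former and a UPK3 protein for the latter. The mesothelium is the flat epithelium that covers the serosal surface of the gut and other organs, and it derives from the coelomic lining. It is marked by the transcription factor WT1, by mesothelin (the product of *Msln*, a surface protein held by a lipid anchor) and by UPK3B, and *Lrrn4* encodes a leucine-rich repeat membrane protein also found there.

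In the mouse genome (GRCm38, GENCODE M21) the 8 genes lie apart except for 1 pair. *Upk3b* (chr5:136038496-136046487) and *Upk3bl* (chr5:136054492-136064326) are neighbours on the plus strand with 8004 bases between them. *Upk3a* lies at chr15:85017141-85022547 on the plus strand, *Upk1a* at chr7:30603092-30612847 and *Upk1b* at chr16:38773184-38800328, both on the minus strand. *Wt1* (chr2:105126529-105173616, plus strand) and *Lrrn4* (chr2:132868305-132880891, minus strand) share chromosome 2, and *Msln* is at chr17:25748613-25754378 on the minus strand, 282 bases from *Mslnl* on the opposite strand. None of the 8 overlapped another annotated gene. *Upk3b* and *Upk3bl* had no run of 31 bases in common with each other or with any other gene, so their reads can be told apart, while 3.61% of such runs of *Msln* and 0.0956% of those of *Wt1* also occurred in other genes.

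The bases just before the start of 2 genes highest in Stromal-2 cells and of 2 uroplakin genes of squamous cells are shown as examples of the mesothelial and the squamous pattern among the genes with a RefSeq entry. They are the 250 bases before the RefSeq start (GRCm38.p6), 5′ to 3′ on the strand of the gene, and 5 of the 8 genes had an entry. The RefSeq start can differ from the GENCODE start. In *Upk3bl* the whole stretch shown lies inside the GENCODE gene position given above, and in *Lrrn4* it overlaps that position in part. Capitals mark matches on either strand to a TEAD motif (GGAATG), to the letters CCAAT, to a GATA motif (AGATAA) or to a GC box (GGGCGG).
*Upk3b*, chr5:136038246-136038495, plus strand: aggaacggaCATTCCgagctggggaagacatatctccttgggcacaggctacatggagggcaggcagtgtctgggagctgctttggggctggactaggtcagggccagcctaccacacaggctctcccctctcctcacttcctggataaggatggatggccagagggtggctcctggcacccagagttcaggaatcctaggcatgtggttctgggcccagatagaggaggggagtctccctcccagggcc
*Lrrn4*, chr2:132880863-132881112, minus strand: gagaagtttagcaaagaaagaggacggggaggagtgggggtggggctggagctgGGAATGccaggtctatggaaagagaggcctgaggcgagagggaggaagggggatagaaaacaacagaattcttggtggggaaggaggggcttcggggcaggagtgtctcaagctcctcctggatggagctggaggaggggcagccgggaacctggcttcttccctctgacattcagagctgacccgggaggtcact
*Upk3a*, chr15:85016891-85017140, plus strand: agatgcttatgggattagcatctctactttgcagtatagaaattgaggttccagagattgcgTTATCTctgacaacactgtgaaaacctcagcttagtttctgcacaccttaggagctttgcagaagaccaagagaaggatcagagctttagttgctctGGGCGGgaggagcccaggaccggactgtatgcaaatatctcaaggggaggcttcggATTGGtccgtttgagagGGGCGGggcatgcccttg
*Upk3bl*, chr5:136057017-136057266, plus strand: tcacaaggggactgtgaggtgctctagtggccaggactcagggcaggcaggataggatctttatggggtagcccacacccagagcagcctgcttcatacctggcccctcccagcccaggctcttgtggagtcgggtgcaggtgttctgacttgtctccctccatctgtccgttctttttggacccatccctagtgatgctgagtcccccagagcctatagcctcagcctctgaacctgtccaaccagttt
The TEAD letters stood 241 bases before the start in *Upk3b* and 196 bases before it in *Lrrn4*, and 12.6% of all 32851 RefSeq promoters of the same length held them. *Upk3a* held 2 GC boxes (32.7% of all promoters), a GATA motif (9.99%) and CCAAT (33.8%). *Upk3bl* and *Upk1a* held none of these, and no entry held TATAAA (12.4% of all promoters) or the AP-1 letters TGANTCA (6.75%). These are matches of letters and not binding sites.

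Across the 9 deposited cell labels the 8 genes fell into distinct patterns. *Upk3b*, *Wt1* and *Lrrn4* were highest in Stromal-2, which held 139 of the 7808 cells, and carried 66.2%, 74.7% and 91.3% of all their UMIs there. *Upk1b*, *Upk3bl* and *Msln* were highest in Squamous Epithelial-2, a label of 40 cells. *Upk3a* was highest in Squamous Epithelial (690 cells) and *Upk1a*, at a low level, in Columnar Epithelial (1540 cells). The rank of *Upk1a* is not resolved, with 2.38 CPM (1.95 to 2.89) in columnar cells and 1.49 CPM (0.180 to 5.38) in Stromal-2. Among 14758 genes with at least 100 UMIs, 12.2% were highest in Stromal-2, 6.55% in Squamous Epithelial-2, 6.59% in Squamous Epithelial and 10.9% in Columnar Epithelial, and since the genes were chosen on these levels nothing is read from their count.

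**Figure D1:**
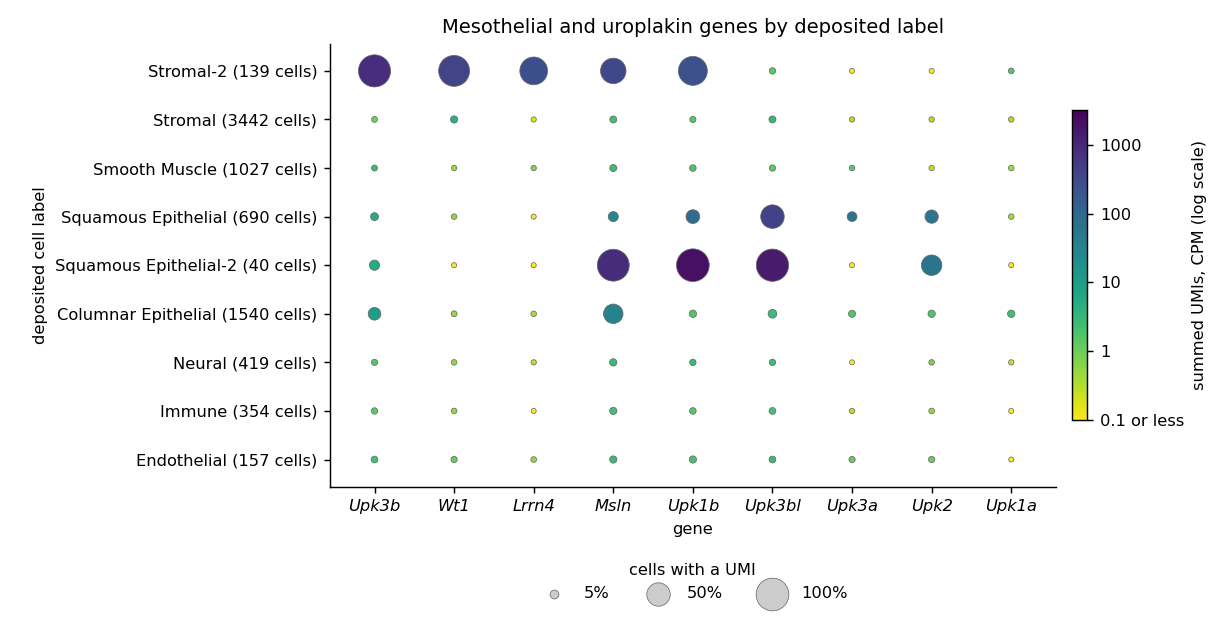
Summed level (color, CPM on a log scale) and share of cells with a UMI (dot size, percent) of the 8 genes and of *Upk2* in the 9 deposited labels. *Upk3b*, *Wt1* and *Lrrn4* stood out in Stromal-2 alone, *Upk1b* and *Msln* in Stromal-2 and in Squamous Epithelial-2, and *Upk3bl* in both squamous labels.

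Stromal-2 held the transcription factor gene *Wt1* at 388 CPM (355 to 423), with a UMI in 124 of 139 cells (89.2%). The label Stromal, which holds the bulk of the fibroblasts, was next with 4.19 CPM (3.52 to 4.96), and immune cells, which should lack the gene, had 0.531 CPM (0.0643 to 1.92). The log2 ratio of Stromal-2 over Stromal was 6.53 (6.25 to 6.81). The Stromal level was carried by prenatal cells near and in the stomach, with 6.37 CPM (4.08 to 9.47) in E15 and 6.47 CPM (4.55 to 8.92) in E19 GE-SCJ cells and 6.55 CPM (4.24 to 9.67) and 4.69 CPM (3.19 to 6.66) in stomach cells of the same ages. The 739 Stromal cells of the E19 esophagus had 0.573 CPM (0.156 to 1.47), below those 4 groups, and no Stromal cell held more than 5 *Wt1* UMIs.

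*Lrrn4* had the largest share of its UMIs in 1 label among the 8 genes. Its 346 UMIs in Stromal-2 gave 258 CPM (231 to 286) and 71.2% of cells, while no other label passed 0.737 CPM. Both squamous labels and the immune cells were at 0 UMIs in 690, 40 and 354 cells, and a sum of 0 in Squamous Epithelial allows a level of up to 0.296 CPM at 3 counts. *Upk3b* reached 864 CPM (815 to 915) in Stromal-2, with a UMI in 134 of 139 cells (96.4%). Columnar cells were next for *Upk3b* with 10.5 CPM (9.56 to 11.5), Squamous Epithelial had 5.71 CPM (4.34 to 7.39) and immune cells had 1.33 CPM (0.431 to 3.10).

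Mesothelin was not restricted in this way. *Msln* stood at 331 CPM (301 to 364) in Stromal-2, at 881 CPM (805 to 963) in Squamous Epithelial-2, at 30.1 CPM (28.5 to 31.8) in columnar cells, at 27.6 CPM (24.5 to 31) in Squamous Epithelial and at 2.39 CPM (1.09 to 4.54) in immune cells. The intervals of the columnar and Squamous Epithelial levels overlapped, and so did those of the Stromal, smooth muscle, neural, immune and endothelial labels, which lay between 2.34 CPM and 2.94 CPM. A share of 33.8% of columnar cells held an *Msln* UMI against 2.54% of immune cells, but columnar cells were deeper, with a median of 25118 against 8266.5 UMIs per cell. After each cell was thinned to 5000 UMIs the shares were 12.6% and 0.395%.

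The uroplakin genes divided between Stromal-2 and the squamous labels. The tetraspanin gene *Upk1b* was measured at 249 CPM (223 to 277) and in 77.7% of cells in Stromal-2, against 2045 CPM (1928 to 2167) and all 40 cells in Squamous Epithelial-2 and 84.6 CPM (79.1 to 90.5) and 15.8% of cells in Squamous Epithelial. *Upk3bl* had only 2 UMIs in Stromal-2, against 1468 CPM (1369 to 1573) in Squamous Epithelial-2 and 405 CPM (393 to 418) in Squamous Epithelial, where 50.6% of cells held a UMI. *Upk3a* had 0 UMIs in Stromal-2 and in Squamous Epithelial-2, and 61.1 CPM (56.4 to 66.1) in Squamous Epithelial. In immune cells 1.69% held an *Upk1b* UMI, 1.98% an *Upk3bl* UMI and 0.282% an *Upk3a* UMI. After thinning to 5000 UMIs, *Upk1b* was found in 68.3% of Stromal-2, 94.6% of Squamous Epithelial-2 and 1.58% of immune cells, and *Upk3bl* in 94.6% of Squamous Epithelial-2, 44.6% of Squamous Epithelial and 1.19% of immune cells. *Upk3b* and *Upk3bl*, neighbours on chromosome 5, lay in opposite directions, as Squamous Epithelial-2 over Stromal-2 gave a log2 ratio of -6.91 (-8.79 to -5.55) for *Upk3b* and of 9.36 (7.81 to 11.6) for *Upk3bl*. *Upk2*, the family member outside the list, followed the squamous group with 57.6 CPM in Squamous Epithelial-2, 56.2 CPM in Squamous Epithelial and 0 UMIs in Stromal-2.

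Most Stromal-2 cells held several of the 5 genes *Upk3b*, *Wt1*, *Lrrn4*, *Upk1b* and *Msln* at once. All 5 were detected in 51 of the 139 cells, 4 in 48, 3 in 25, 2 in 11 and 1 in 4, and no cell lacked all of them. *Upk3b*, *Wt1* and *Lrrn4* were found together in 90 Stromal-2 cells (64.7%), in 2 of 1540 columnar cells, in 1 of 1027 smooth muscle cells and in no cell of the other 6 labels. Columnar cells also differed from Stromal-2 in the ratio of these genes, with 5.07 *Wt1* and 3.74 *Lrrn4* UMIs per 100 *Upk3b* UMIs against 44.9 and 29.8 in Stromal-2. Squamous Epithelial held 10.3 *Wt1* and 0 *Lrrn4* UMIs per 100 of *Upk3b*.

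The label Stromal-2 was set beside cell type markers. The sum of 7 mesothelial markers was 2663 CPM in Stromal-2 and 9.31 CPM in Stromal. It was 892 CPM in Squamous Epithelial-2, of which *Msln* made up 881 CPM. Of the 7 markers, 4 are among the 8 genes and were listed with their Stromal-2 levels in view, so nothing is read from this sum. Fibroblast markers summed to 7648 CPM in Stromal-2 and 20158 CPM in Stromal. Of 16 other mesothelial genes, 15 were measured and 11 were highest in Stromal-2 (73.3%, against 12.2% of all genes). Among them were *Muc16*, which encodes the mucin that binds mesothelin, at 322 CPM, *Rspo1*, a WNT agonist, at 326 CPM, *Aldh1a2*, an enzyme of retinoic acid synthesis, at 574 CPM and *Bnc1*, a zinc finger transcription factor, at 104 CPM. The keratin genes *Krt7*, *Krt8*, *Krt18* and *Krt19* were the 4 that were higher elsewhere, in columnar or squamous cells. This list and the coelomic one below were chosen with earlier results of these data known. *Muc16*, *Bnc1* and *Gpm6a* are also among the 7 markers, so nothing is read from the counts of these lists. Of 7 transcription factors of the coelomic epithelium, *Gata6* (336 CPM), *Osr1* (142 CPM) and *Sox6* (97.6 CPM) were highest in Stromal-2. *Tcf21*, *Tbx18*, *Gata4* and *Tcf15* were not, with 26.1, 2.23, 19.4 and 0 CPM there.

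Whether the mesothelial genes changed with age was examined within Stromal-2, which held 26 cells of E15, 60 of E19, 52 of the pup and 1 adult cell. *Msln* stood at 12.7 CPM (3.47 to 32.6) in E15 cells, at 88.0 CPM (66.7 to 114) in E19 cells and at 1015 CPM (916 to 1122) in pup cells. Its share of positive cells was 2 of 26, 29 of 60 and 51 of 52, and after thinning 0%, 28% and 100% of the cells deep enough held a UMI. The intervals of the 3 stages did not overlap, although pup cells were the shallowest with a median of 7010 UMIs against 11928 at E15. *Upk1b* moved in the same direction, with 76.4 CPM (49.0 to 114), 227 CPM (192 to 267) and 432 CPM (368 to 504), and with 50%, 75% and 96.2% of cells positive.

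The other mesothelial genes of the list differed by less than 2-fold over the same stages. *Upk3b* had 694 CPM (605 to 793), 914 CPM (842 to 991) and 920 CPM (826 to 1022) in order of age. Over all regions together its E15 interval lay below both later ones. *Wt1* had 344, 405 and 390 CPM with intervals that overlapped in every pair. *Lrrn4* had 239, 289 and 223 CPM, and its intervals overlapped too. The single adult cell held 3 of these genes, with *Wt1*, *Upk3b* and *Msln* but no *Lrrn4* or *Upk1b* UMI, and is too few for a level.

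From E15 to E19 in Stromal-2, 5 of the 8 genes reached 20 UMIs in the sum of both ages, and 2 of them differed at least 2-fold, both higher at E19. Over all 6938 genes with that many UMIs, 11.2% differed at least 2-fold in either direction and 5.53% were higher. The log2 ratios were 2.49 (1.19 to 4.17) for *Msln* and 1.52 (0.90 to 2.20) for *Upk1b*, against 0.39 (0.17 to 0.62) for *Upk3b*, 0.23 (-0.10 to 0.56) for *Wt1* and 0.26 (-0.13 to 0.67) for *Lrrn4*. With stomach cells alone the ratios were 2.91 (1.32 to 4.93) for *Msln* and 1.66 (0.65 to 2.75) for *Upk1b*, and *Upk3b* had 1129 against 651 CPM, a ratio of 0.79 (0.44 to 1.15). Only 7 GE-SCJ cells were of E15, and there the ratios of *Msln* and *Upk1b* were 1.74 (-0.21 to 4.83) and 0.77 (-0.08 to 1.77), neither of them beyond counting error. *Upk3b* at the GE-SCJ had 861 CPM at E19 against 829 CPM at E15, a ratio of 0.04 (-0.32 to 0.42).

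From E19 to the pup, *Msln* was the single gene of the same 5 that differed at least 2-fold, with a log2 ratio of 3.51 (3.11 to 3.93), where 17.5% of 7066 genes differed and 7.9% were higher in the pup. The ratio was 3.58 (3.06 to 4.13) at the GE-SCJ and 2.94 (2.27 to 3.70) in the stomach. *Upk1b* reached 0.93 (0.60 to 1.26) over all regions, 1.19 (0.75 to 1.61) at the GE-SCJ and 0.85 (0.19 to 1.56) in the stomach, so its side of the 2-fold threshold depended on the region. *Upk3b* (0.01, -0.18 to 0.21) and *Wt1* (-0.05, -0.35 to 0.25) stayed within counting error, and *Lrrn4* gave -0.37 (-0.75 to 0.01).

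**Figure D2:**
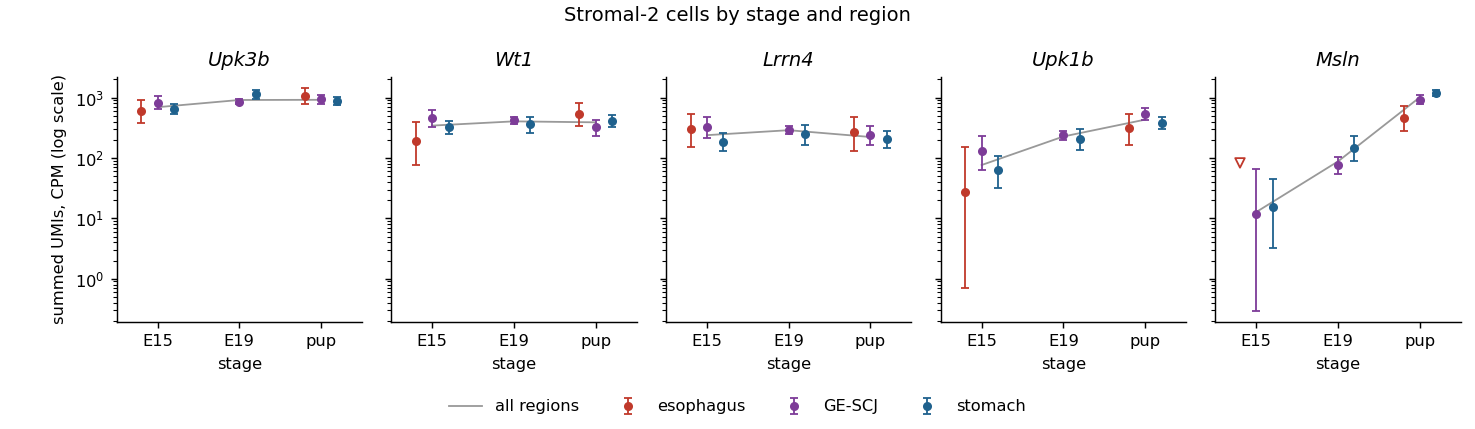
Summed level (CPM, log scale) of 5 genes in Stromal-2 cells by stage, for each region with at least 4 cells, with exact Poisson 95% intervals; the open triangle marks the level that 3 counts would have where no UMI was found, and the grey line joins the level over all regions. *Upk3b*, *Wt1* and *Lrrn4* differed by less than 2-fold between stages over all regions, while the oldest cells had 1015 CPM of *Msln* and 432 CPM of *Upk1b*, against 12.7 CPM and 76.4 CPM in the youngest.

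Other mesothelial genes of the list above also stood higher in the pup. *C3*, which encodes a complement component, had 0, 38.6 and 3950 CPM in Stromal-2 from E15 to the pup, and the protease inhibitor gene *Slpi* had 12.7, 247 and 18766 CPM. *Gpm6a*, which encodes a membrane glycoprotein, had 115, 343 and 726 CPM, *Muc16* had 143, 266 and 570 CPM, and *Krt19* had 277, 682 and 1156 CPM. By contrast *Bnc1* (92.4, 116 and 95.4 CPM) and *Rspo1* (287, 303 and 395 CPM) differed by less than 2-fold, and *Podxl*, which encodes a sialomucin, had 592, 509 and 321 CPM. The sum of the suprabasal squamous markers in Stromal-2 was 169, 279 and 681 CPM at the 3 stages and that of the basal squamous markers 89.2, 174 and 403 CPM. Columnar markers summed to 704, 991 and 1697 CPM and endothelial markers to 6.37, 15.4 and 61.0 CPM. *Krt8* and *Krt18* of the columnar markers are also on the mesothelial list. *Krt8* made up 89.2, 205 and 453 CPM of the columnar sums and *Krt18* 82.8, 145 and 239 CPM. Immune markers summed to 12.7, 13.9 and 31.8 CPM and smooth muscle markers to 137, 245 and 154 CPM. *Upk3bl*, which Squamous Epithelial-2 cells held beside *Msln*, had 0, 2 and 0 UMIs in Stromal-2 at these stages. The part of RNA of other cell types in the pup values was not tested.

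The regions of Stromal-2 were compared over all stages, where *Upk3b* had 868 CPM (690 to 1077) in 12 esophageal cells, 871 CPM (805 to 941) in 72 GE-SCJ cells and 853 CPM (775 to 937) in 55 stomach cells. *Wt1* had 370, 406 and 365 CPM, again with overlapping intervals. *Lrrn4* had 296 CPM (197 to 428), 287 CPM (250 to 328) and 208 CPM (170 to 251) in the same order, and *Upk1b* had 148 CPM (81.0 to 249), 282 CPM (245 to 323) and 220 CPM (181 to 264). Stomach over esophagus, the log2 ratio was -0.55 (-1.15 to 0.10) for *Lrrn4* and 0.48 (-0.30 to 1.37) for *Upk1b*. *Msln* was the 1 gene of the 5 that differed at least 2-fold between the stomach and the esophagus, with 502 CPM against 212 CPM and a log2 ratio of 1.18 (0.54 to 1.90), where 16.6% of 5149 genes differed and 9.11% were higher in the stomach. Stages were mixed unequally in these sums, and among pup cells alone the ratio was 1.32 (0.66 to 2.05), from 27 stomach and 6 esophageal cells. Pup *Msln* was 1197 CPM (1049 to 1360) in the stomach, 925 CPM (773 to 1100) at the GE-SCJ and 459 CPM (276 to 716) in the esophagus.

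In squamous cells the question was which uroplakins were present and when. Both squamous labels together held 64, 123, 85 and 232 esophageal cells in order of age. *Upk3bl* was the most widespread, with 483 CPM (441 to 529), 1623 CPM (1563 to 1685), 856 CPM (799 to 917) and 14.3 CPM (10.5 to 19.1) and with 84.4%, 90.2%, 88.2% and 14.7% of cells positive. *Upk1b* had 87.5 CPM (70.0 to 108), 432 CPM (401 to 464), 987 CPM (925 to 1051) and, from 3 adult UMIs, 0.935 CPM (0.193 to 2.73). *Upk3a* had 452 CPM (411 to 496), then 81.3 CPM (68.4 to 96.0), and 0 UMIs in 85 pup and 232 adult cells. It was thus highest at the earliest stage, where *Upk1b* and *Upk3bl* were below their E19 and pup levels and above their adult levels.

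*Msln* in esophageal squamous cells had 32.6 CPM (22.3 to 46.0), 121 CPM (105 to 138), 422 CPM (382 to 464) and 1.56 CPM (0.506 to 3.64) in order of age. *Wt1* had 1 UMI in the adult and none before, and *Lrrn4* had 0 at every stage, so these mesothelial genes were at or near 0 where *Msln* was present. *Upk3b* had 44 UMIs or 25.7 CPM (18.7 to 34.6) at E19, against 1 UMI before and 2 and 5 UMIs after. The 44 UMIs at E19 were spread over 12 cells, of which the 5 highest held 34. *Upk2* had 50.9, 209, 28.8 and 0.623 CPM over the 4 stages.

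From E15 to E19 all 5 genes with at least 20 UMIs in esophageal squamous cells differed at least 2-fold, 4 higher and 1 lower, where 13.2% of 9629 genes did, 4.31% higher and 8.92% lower. The log2 ratios were 2.29 (1.97 to 2.63) for *Upk1b*, 1.74 (1.60 to 1.89) for *Upk3bl*, 1.85 (1.32 to 2.43) for *Msln* and 3.69 (1.76 to 6.78) for *Upk3b*. *Upk3a* gave -2.47 (-2.75 to -2.19). *Upk2* gave 2.02 (1.59 to 2.47), in the direction of *Upk1b* and not of *Upk3a*. With the Squamous Epithelial label alone the ratios were 2.08 (1.75 to 2.42) for *Upk1b* and -2.42 (-2.71 to -2.15) for *Upk3a*.

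Adult esophageal squamous cells were lower than E19 cells in the same 5 genes, where 22.1% of 10602 genes differed at least 2-fold and 13.7% were lower. The log2 ratio of adult over E19 was -6.79 (-7.24 to -6.38) for *Upk3bl*, -6.02 (-7.48 to -4.87) for *Msln* and -3.82 (-5.34 to -2.58) for *Upk3b*. For *Upk1b* it was -8.44 (-10.3 to -7.08), on 3 adult UMIs. *Upk3a*, at 0 UMIs in the adult, was at least 87.0-fold lower when 3 counts were taken as the limit. Suprabasal markers lay in the other direction, and in the label Squamous Epithelial of the esophagus they summed to 54678 CPM in the adult and to 14237 CPM at E19.

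**Figure D3:**
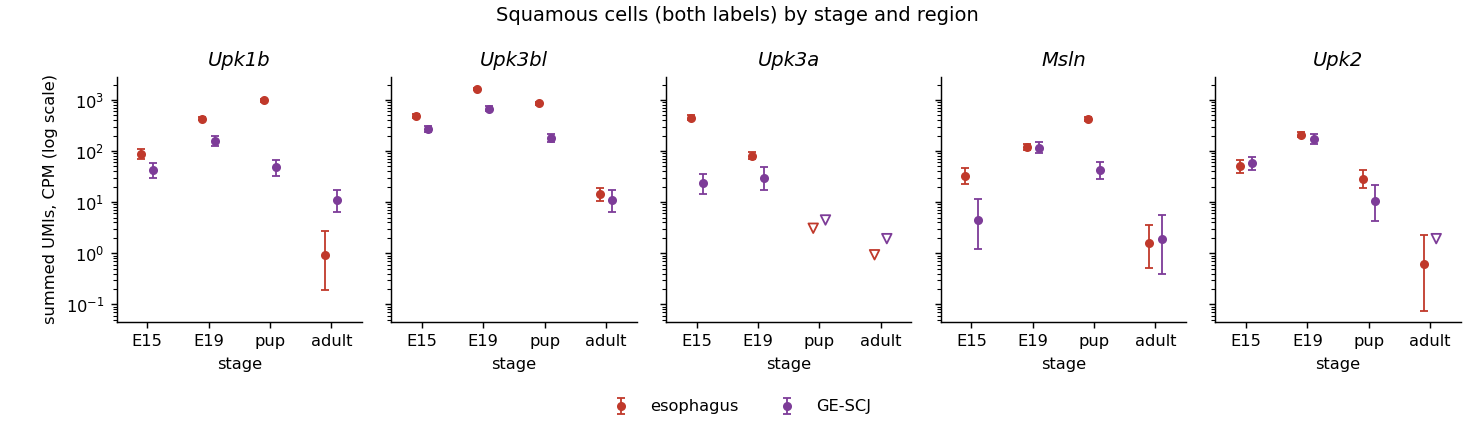
Summed level (CPM, log scale) of 4 of the 8 genes and of *Upk2* in squamous cells of both labels by stage in the esophagus and at the GE-SCJ, with exact Poisson 95% intervals; open triangles mark the level that 3 counts would have where no UMI was found. *Upk3a* was highest in E15 esophagus at 452 CPM and not found after birth, and the other genes peaked at E19 or in the pup and were low in the adult.

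GE-SCJ squamous cells gave the same direction for 3 of the genes. Between 47 cells at E15 and 34 at E19, *Upk1b* went from 42.0 to 156 CPM (log2 ratio 1.87, 1.31 to 2.46), *Upk3bl* from 270 to 679 CPM (1.33, 1.09 to 1.57) and *Msln* from 4.42 to 117 CPM (4.42, 3.13 to 6.1). *Upk3a* was the exception, with 23.2 CPM (14.4 to 35.5) at E15 and 29.7 CPM (17.0 to 48.2) at E19. The GE-SCJ sums rested on few cells. For *Upk1b* the 5 highest cells held 34 of 38 UMIs at E15 and 71 of 84 at E19, and for *Msln* 57 of 63 at E19. At E15 the esophagus exceeded the GE-SCJ in *Upk3a* by a log2 ratio of 4.22 (3.6 to 4.91), while *Upk2* did not differ beyond counting error (-0.18, -0.76 to 0.41). *Msln* differed by 2.60 (1.24 to 4.32), on 4 UMIs at the GE-SCJ, *Upk1b* by 1.04 (0.48 to 1.62) and *Upk3bl* by 0.84 (0.61 to 1.07). No share over all genes was taken for this comparison of the regions. In the pup the GE-SCJ held 47.8 CPM of *Upk1b* and 43.3 CPM of *Msln*, well below the pup esophagus, where 29 of the 85 cells carried the label Squamous Epithelial-2 against 2 of 46 at the GE-SCJ.

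*Upk3a* at E15 rested on few cells. It was detected in 12 of 64 esophageal squamous cells, the highest of which held 125 UMIs, and the 5 highest held 391 of the 444 UMIs. Per cell, 6 cells exceeded 1000 CPM and 52 had no UMI. At E19 it was detected in 24 of 123 cells, and the highest held 43 UMIs. Of the 12 positive cells at E15, 11 also held *Upk3bl*, 9 held *Upk1b* and 9 held *Upk2*. Of all 64 cells 54 held *Upk3bl*, 17 *Upk1b* and 11 *Upk2*, so the overlap with *Upk3bl* was near its share of all cells. At E19 21 of 24 also held *Upk1b*, against 50 of all 120 cells of the label Squamous Epithelial. The *Upk3a*-positive cells were deeper, with a median of 16763 UMIs against 13895.5 at E15, and the part of depth in these pairs was not tested.

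Cells with and without the uroplakins differed in their keratins. At E15 the 12 *Upk3a*-positive cells had 6587 CPM of *Krt13* and 3726 CPM of *Krt4*, keratins of suprabasal layers, against 253 and 400 CPM in the other 52 cells. The suprabasal markers summed to 10673 against 789 CPM at E15, but *Lor* and *Spink5* of that list were lower in the positive cells. *Trp63*, the transcription factor of basal cells, had 25.5 against 344 CPM, and *Col17a1*, which anchors basal cells to the basement membrane, had 4.24 against 201 CPM. The basal keratin *Krt15* did not follow them, with 4439 against 4187 CPM at E15 and 6755 against 4830 CPM in the E19 split by *Upk1b*, and the basal squamous markers summed to 4931 against 5938 CPM and to 7658 against 7214 CPM. At E19 the 50 *Upk1b*-positive cells of the Squamous Epithelial label had 14682 CPM of *Krt13* against 1484 CPM in the 70 others, and 43.6 against 298 CPM of the basal keratin *Krt14*. The same positive cells had 2925 CPM of *Upk3bl*, 407 CPM of *Upk2*, 215 CPM of *Msln* and 164 CPM of *Upk3a*, against 342, 20.4, 4.81 and 4.81 CPM in the others. Columnar markers summed to 4083 against 1106 CPM at E15 and to 2910 against 1610 CPM at E19. The keratins *Krt8* and *Krt18* of that list were higher in the positive cells at both ages. *Agr2* and *Epcam* were also higher at E15, where *Tff1* was somewhat lower and *Gkn2* nearly level. At E19 *Agr2*, *Epcam*, *Tff1* and *Gkn2* were nearly level. Fibroblast markers summed to 331 against 1872 CPM at E15 and to 251 against 1939 CPM at E19, and the part of either list in the split was not tested.

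**Figure D4:**
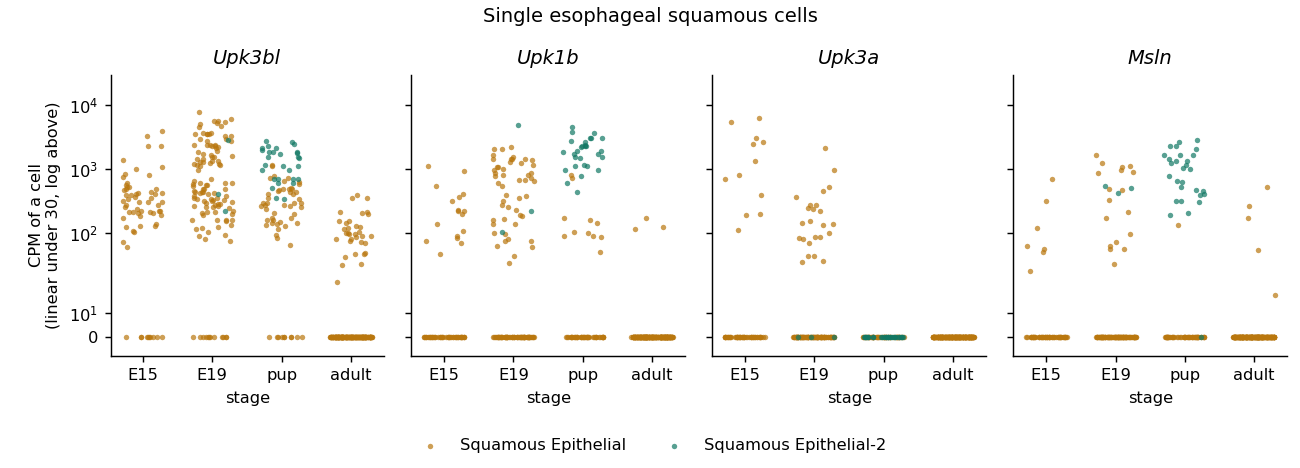
CPM of 4 genes in single esophageal squamous cells by stage, 1 point per cell, colored by deposited label, on an axis that is linear under 30 CPM and logarithmic above. *Upk3bl* was found in most cells until the pup, *Upk3a* in 12 of 64 E15 cells and in none after birth, and pup cells of the label Squamous Epithelial-2 held *Upk1b* and *Msln* above nearly all cells of the other label.

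The 2 squamous labels were compared within the pup esophagus, which held 29 of the 40 Squamous Epithelial-2 cells and 56 Squamous Epithelial cells. All 3 genes with at least 20 UMIs in both labels together were higher in Squamous Epithelial-2. So were, by at least 2-fold, 16.3% of the 5005 genes tested. Of the same 5005 genes 67.9% differed at least 2-fold in either direction, with a median log2 ratio of -1.08. A 2-fold difference was thus common between these labels, but more often lower than higher in Squamous Epithelial-2. How common larger differences were was not examined. *Upk1b* had 2250 CPM (2106 to 2402) against 98.1 CPM (74.1 to 127), *Upk3bl* 1531 CPM (1412 to 1657) against 382 CPM (333 to 436) and *Msln* 1001 CPM (905 to 1103) against 14.0 CPM (6.05 to 27.6). A single Squamous Epithelial cell of the pup held 43 of the 56 *Upk1b* UMIs, 68 of the 218 *Upk3bl* UMIs and all 8 *Msln* UMIs of its label, and it carried 59766 UMIs in all. *Upk3a*, *Wt1*, *Lrrn4* and *Upk1a* had 0 UMIs in all 40 cells of Squamous Epithelial-2, and *Upk3b* had 3. The suprabasal markers summed to 12132 CPM and the basal markers to 1457 CPM there.

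Apart from that label, the squamous cells of the pup esophagus were below those of E19. In Squamous Epithelial the log2 ratio of pup over E19 was -1.90 (-2.32 to -1.51) for *Upk1b*, -2.09 (-2.29 to -1.89) for *Upk3bl* and -2.80 (-3.95 to -1.84) for *Msln*. The higher pup levels of *Upk1b* and *Msln* in both labels together were thus carried by the 29 cells of Squamous Epithelial-2, a label that held 3 esophageal cells at E19 and none at E15 or in the adult. In Squamous Epithelial of the esophagus the suprabasal markers summed to 2592 CPM in the pup and to 14237 CPM at E19. The part of this difference in the ratios above was not tested, and no share over all genes was taken for them.

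Over all regions and stages, *Msln* and *Upk3b* were low in columnar cells but above immune cells. *Msln* was almost flat, with 33.1 CPM (27.7 to 39.4) in 140 stomach cells at E15, 28.8 CPM (25.5 to 32.4) in 366 at E19 and 25.0 CPM (22.2 to 28.1) in 351 in the pup, and with 33.2, 37.1 and 32.8 CPM at the GE-SCJ. *Upk3b* was higher at E19 than before or after in the stomach. It had 5.18 CPM (3.16 to 8.00), 23.9 CPM (20.9 to 27.2) and 5.08 CPM (3.86 to 6.57) there and 9.06, 14.0 and 2.44 CPM at the GE-SCJ. Of the 4 genes with at least 20 UMIs in stomach columnar cells, *Upk3b* was the 1 that differed at least 2-fold between E15 and E19, with a log2 ratio of 2.14 (1.49 to 2.86), where 10.4% of 12310 genes differed and 4.42% were higher at E19. At the GE-SCJ that ratio was 0.52 (-0.32 to 1.48). From E19 to the pup it was -2.21 (-2.65 to -1.80) in the stomach and -2.46 (-3.21 to -1.77) at the GE-SCJ.

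In stomach columnar cells of E19 *Upk3b* came with *Msln* and without *Wt1* and *Lrrn4*. In the 81 *Upk3b*-positive stomach cells at E19, *Wt1* and *Lrrn4* had 0 UMIs. These cells had 14124 CPM of *Tff1*, a trefoil peptide gene of gastric surface mucous cells, against 4516 CPM in the 285 other columnar cells, and 942 against 585 CPM of *Gkn2*, a gastrokine gene of the same lineage. The columnar markers, *Tff1* and *Gkn2* among them, summed to 21785 against 9868 CPM, but *Agr2* and *Epcam* of that list were lower in the positive cells. *Tff1* was also higher in the positive cells of the GE-SCJ, where *Gkn2* was nearly level. The positive stomach cells also had 54.4 against 20.7 CPM of *Msln*. At the GE-SCJ the mesothelial markers other than *Upk3b* summed to 63.1 CPM in the 56 *Upk3b*-positive columnar cells of E19 and to 32.3 CPM in the 218 others. In the stomach the median depth was 25589 UMIs per *Upk3b*-positive cell against 23877 in the others. The 5 highest stomach cells held 49 of the 228 *Upk3b* UMIs, so the stomach level at E19 was spread over many cells.

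**Figure D5:**
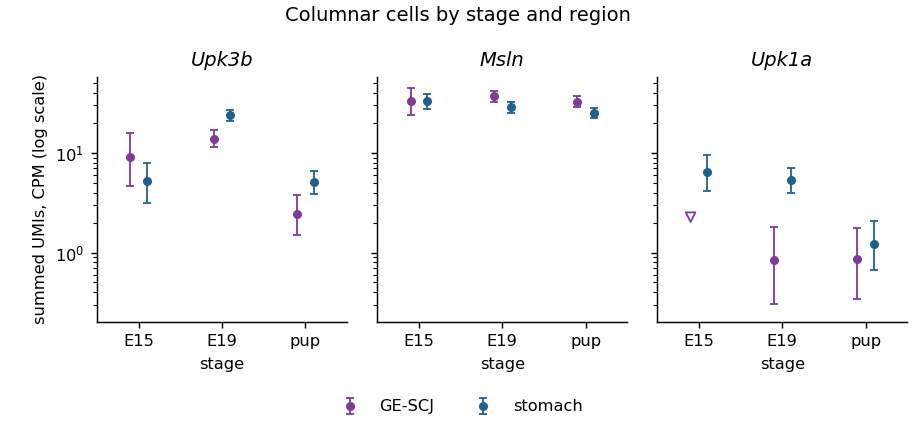
Summed level (CPM, log scale) of *Upk3b*, *Msln* and *Upk1a* in columnar cells of the GE-SCJ and stomach by stage, with exact Poisson 95% intervals; the open triangle marks the level that 3 counts would have where no UMI was found. *Upk3b* was highest at E19 in the stomach, while at the GE-SCJ its E15 and E19 intervals overlapped, *Msln* lay between 25.0 and 37.1 CPM, and *Upk1a* was highest in the prenatal stomach.

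*Upk1a* was the rarest of the 8 genes, with 127 UMIs in 64 cells. Columnar cells held 103 of these, or 2.38 CPM (1.95 to 2.89). The stomach had 6.47, 5.34 and 1.23 CPM from E15 to the pup, but a single E19 cell held 41 of the 51 UMIs of that group, and 1 E15 cell held 13 of 25. Without the 1% of columnar cells with the most *Upk1a* UMIs, the columnar level was 0.609 CPM. That is below the 1.49 CPM of Stromal-2, which rests on 2 UMIs. *Upk1b* and *Upk3a* were found at 41.3 and 57.8 CPM in 20 columnar cells of the E19 esophagus, but 1 cell held 24 of the 25 and 34 of the 35 UMIs.

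Genes with the most similar pattern were sought over 55 groups of label, region and stage with at least 20 cells, as Pearson's r of log2(CPM + 10) against 14758 genes. The groups come from 1 pooled library and differ in depth, and r is given as a description. *Lrrn4* was nearest to *Crb2* (r = 0.98), a polarity gene of the Crumbs family, and *Wt1* to *A730046J19Rik* (0.95) and *Crb2* (0.94). *Upk3b* was nearest to *Rpp25* (0.92) and *Crb2* (0.91). Among the 8 genes, *Wt1* and *Lrrn4* had r = 0.96, *Upk3b* and *Lrrn4* 0.93, and *Upk3b* and *Upk3bl* 0.02. *Upk3bl* was nearest to *Tmprss11b* (0.92), a serine protease gene, and *Upk2* (0.91), and *Upk3a* to *Eaf2* (0.79) with *Upk2* the third in rank (0.74). *Upk1b* was nearest to *Wfdc15b* (0.85) and *Msln* to *Pard6b* (0.85), a polarity gene, with *Krt7* the third in rank (0.82). *Upk1a* was nearest to *Pax6* (0.75) and had *Pdx1* at rank 3 (0.65), both transcription factor genes of endocrine and distal foregut cells, on few UMIs. Only 2 of the 55 groups were of Stromal-2, and these values rest on them for *Upk3b*, *Wt1* and *Lrrn4*.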

How the data were processed

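Single-cell 3′ RNA libraries of tagged cells (10x CellPlex) were analysed from the deposited count matrix. Per the labels, the authors counted UMIs with Cell Ranger 6.1.1 on mm10, assigned cells to region and stage by tag, filtered cells on genes, UMIs and mitochondrial share, removed subgroups with poor read counts, and clustered them with Seurat. Their counts were deposited without normalization, together with a cell label, a total and a percent of mitochondrial UMIs per cell, which the authors computed. The total equalled the summed counts in all 7808 cells. Deposited labels were used as given, and doublets were not removed beyond the authors' filter.

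Counts were summed per label, region and stage and scaled to CPM with Python 3.11.15, numpy 2.4.6, pandas 2.3.3 and scipy 1.17.1. Exact 95% intervals were Poisson for sums, Clopper-Pearson for shares and conditional on both sums for ratios. With 1 sample per group no test was run. A gene was counted as different when it had at least 20 UMIs over both groups and an absolute log2 ratio of at least 1. In a simulation of E19 over E15 in Stromal-2 on 6913 genes, 100% of 200 genes changed 4-fold were found, and 3.49% of 6713 unchanged genes passed, none of the 1395 with at least 100 UMIs. Depth bounds the precision, as small groups such as 7 cells gave wide intervals.

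The genes and lists were chosen with earlier results of these data known. Beyond the 8 genes, named genes were *Upk2*, 2 lists of mesothelial and coelomic genes, chromosomal neighbours, and the 3 genes most alike each member. Alternatives were the mean of each cell's CPM, stricter cell filters, leaving out the cells with the most UMIs, another library size, other UMI minimums and thinning to 5000 UMIs. Comparisons within 1 region or stage were added after the data were seen.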

Additional observations from a re-analysis of the deposited data

Results flagged for a closer look

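*Upk3a* in squamous cells moved in opposite directions between E15 and E19 in the 2 regions that hold these cells, with a log2 ratio of -2.47 (-2.75 to -2.19) in the esophagus and 0.37 (-0.63 to 1.35) at the GE-SCJ. Each region is 1 pooled sample per stage, the GE-SCJ value is within counting error of no change, and the difference between the regions was not tested against variation between mice. In the esophagus at E15, 5 of 64 cells held 391 of 444 UMIs, and at the GE-SCJ 5 of 47 cells held 20 of 21.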

How the results depend on the processing

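No log2 ratio past 2-fold changed sign under the alternatives tried. Cells of 1 region alone were tried for the stage comparisons of Stromal-2 and not for squamous cells. The opposite signs of *Upk3a* in squamous cells of the 2 regions, given above, are therefore not counted here. The count of genes highest in Stromal-2 stayed at 3 under all 5 alternatives. For E19 over E15 in Stromal-2, the count of genes past 2-fold was 1 in place of 2 with at least 100 UMIs and 1 in GE-SCJ cells only, a setting chosen after the data were seen. For the pup over E19 in Stromal-2 it was 2 in place of 1 with the mean of each cell's CPM and 2 in GE-SCJ cells only, where *Upk1b* passed as well. Of the 24 most similar genes, 15 were again named with log2(CPM + 1), 5 with groups of at least 50 cells, where Stromal-2 has no group, and 7 with genes of at least 500 UMIs. Of 211 alternative log2 ratios, 184 stayed within the counting interval of the reported value and 27 moved outside it, as did 44 of 100 alternative CPM values and 34 of 60 alternative shares of positive cells. *Upk3a*, E19 over E15 in esophageal squamous cells, gave -3.16 when the 1% of cells richest in *Upk3a* were left out and -2.08 when the 5% deepest cells were. *Msln* between the squamous labels of the pup gave 8.95 when the 1% of cells richest in *Msln* were left out. *Lrrn4*, E19 over E15 in Stromal-2, changed sign to -0.15 with the mean of each cell's CPM and to -0.19 in GE-SCJ cells only, against 0.26. Others within 2-fold that changed sign and left their interval were *Wt1* in that contrast (-0.14 in GE-SCJ cells only, against 0.23), *Upk3b*, pup over E19 in Stromal-2 (-0.36 in stomach cells only, against 0.01), and *Upk1a*, E19 over E15 in stomach columnar cells (0.52 with the mean of each cell's CPM, against -0.31). The cause was not tested. No paired analysis was possible because each region and stage is 1 pooled sample without replicate numbers.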
